A study of Mus musculus with 8 samples.

Results

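All 16486 genes of the deposited table were compared between the Ly6C-low monocytes (MCs) of db/db mice, the model of type 2 diabetes (T2DM), and those of control (CT) mice. The comparison takes 1 T2DM library and 2 CT libraries out of 8, and its value is the T2DM log2 value minus the mean of the CT values (log2FC), with the difference between the CT libraries as the measure of spread. The CT mice were wild type C57/BL6 and the T2DM mice carried the db/db genotype, for which no background strain was given. Mice were male and 20 to 22 weeks old, on normal chow. Blood MCs were sorted as CD11b+Ly6G-Ly6C-low, RNA was taken from each mouse, and the RNA of 5 mice was pooled per group. T1DM Ly6C-low MCs, from C57/BL6 mice in which streptozotocin (STZ) had destroyed pancreatic beta cells, and T2DM Ly6C-high MCs, with 1 library each, and CT Ly6C-high MCs, with 2, are given beside this comparison where they bear on it.

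Ly6C-high MCs, the classical subset, leave the bone marrow and enter inflamed tissue. Ly6C-low MCs arise largely from them, depend on the transcription factor Nr4a1, patrol the inner wall of small vessels and clear damaged cells and lipid. db/db mice lack the long form of the leptin receptor, eat to excess and become obese, insulin resistant and hyperglycaemic.

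Lepr, the mutated gene, had log2 values of 0.74 and 4.23 in the CT libraries and 2.23 in the T2DM library. The T2DM library lay between the CT libraries. The db mutation alters the splicing of the long form and leaves shorter transcripts, so a value summed over the gene's transcripts does not check the genotype.

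The T2DM group has 1 library, so no difference has a replicate check on the T2DM side. Each pool was sequenced in duplicate according to the labels, and the CT libraries may therefore differ only in technical ways and their spread, and with it the p-values below, need not hold the differences between mice. The sequencer was a NextSeq 500 for CT and a HiSeq 4000 for both kinds of diabetic mice, so its effect and that of diabetes cannot be told apart in any value set against CT. The T1DM library shared the sequencer of the T2DM library, so the T2DM minus T1DM value is given beside the main results. T1DM mice were C57/BL6 like CT, and no strain was given for T2DM mice. Strain and diabetes therefore cannot be told apart in T2DM minus T1DM or in T2DM minus CT. The mean over the 4 diabetic libraries lay close to that over the 4 CT libraries for most genes (SD of the difference over genes 0.272, against 0.743 for T2DM minus T1DM). Whether the values were centred or corrected across sequencers is not given in the sources used here. If they were, a value against CT also depends on the other diabetic libraries.

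The median absolute log2FC was 0.280, beside a median absolute difference of 0.247 between the CT libraries, and the median log2FC was -0.0064. The spread depended on the level. Between the CT libraries, 1651 genes differed by more than 1, but 23 of these were among the 5153 genes whose log2 values in the 3 Ly6C-low libraries averaged 5 or more. A gene was therefore called only when the T2DM value lay outside both CT values by more than 1 and by more than the CT values differed from each other. By this rule 448 genes (2.72%) were higher and 567 (3.44%) lower in T2DM. The counts rest on both CT libraries and on low values, since without 1 CT library they were 1043 to 1057 and 1073 to 1132, and after the removal of genes with a mean below 1 over the 8 libraries 207 and 224. Of the 3439 genes with a mean below 1, 5.93% were called higher and 8.93% lower, of the 7894 genes from 1 to below 5, 2.77% and 2.98%, and of the 5153 genes of at least 5, 0.485% each, which is 25 genes in each direction. For many genes, several libraries of a sequencer share their lowest value, called the floor here. The floor of a gene can differ between sequencers, as for Prss34 at -1.89 in CT and -2.59 in diabetic libraries. A CT library stood at the floor for 86 of the genes called higher and the T2DM library for 55 of those called lower, and the size of such a difference depends on where the floor lies. When T2DM also had to differ from T1DM Ly6C-low MCs by more than 1 in the same direction, a check added after the data were seen, 286 of the higher and 406 of the lower genes were left.

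**Figure D1:**
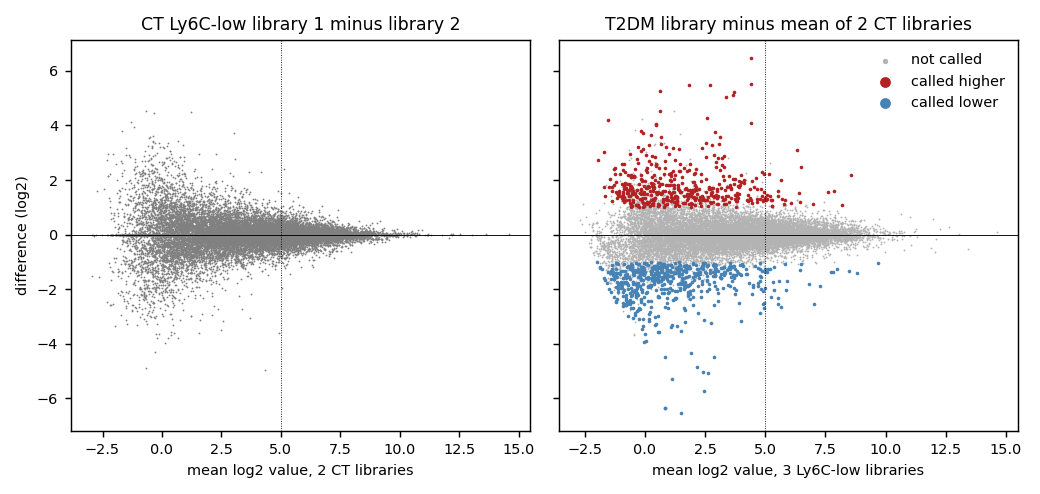
Each point is a gene, with the mean log2 value on the horizontal axis and a log2 difference on the vertical axis, for the CT libraries against each other (left) and T2DM minus the CT mean (right). The dotted line marks a mean of 5, to the right of which 25 genes were called higher (red) and 25 lower (blue) and the CT libraries spread less than at low levels.

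In limma, with the spread taken from the CT duplicates of both subsets and the lone T2DM library assumed to vary like them, 0 genes (0%) passed an adjusted p-value under 0.01 with an absolute log2FC above 1, and 1893 genes had an unadjusted p-value under 0.05. After the same removal of low genes, 7 genes were higher and 9 lower at 0.01, so this count depends on the filter. With all genes and a limit of 0.05, 11 genes (0.0667%) passed. Apoe (adjusted p = 0.0427), Tpm3-rs7, Rpl3-ps1 and Rpsa-ps10 were higher, and Rps18 (adjusted p = 0.0427), Rpl3, Rpsa, H2-K1, Skint3, Gm10359 and Gm12671 were lower (limma, Benjamini-Hochberg). Of these, 5 are ribosomal protein genes or their copies, which are described together below. Gm10359 and Gm12671 had the same values, 2.94 in both CT libraries and -3.43 in T2DM, and all of their 31-base sequences also occur in other genes, so they are 1 measurement. Both values are the floor of their libraries, so this call sets one floor against another.

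The 12 genes with the largest differences in each direction were taken from the called genes with a mean of at least 5, and they included genes of lipid handling and of cytotoxic lymphocytes. Apoe, the apolipoprotein that carries cholesterol out of macrophages, had log2 values of 7.82 and 7.86 in CT and 10.04 in T2DM (log2FC 2.20, SE 0.06). It was 8.71 in T1DM Ly6C-low MCs, and T2DM minus CT was 1.44 in Ly6C-high MCs. Lpl, lipoprotein lipase, which frees fatty acids from triglyceride-rich lipoproteins, was 5.60 and 5.71 in CT and 8.14 in T2DM (log2FC 2.49, SE 0.11, adjusted p = 0.0533, limma). In contrast to Apoe, Lpl was 5.35 in T1DM and its log2FC was -0.41 in T2DM Ly6C-high MCs. Its subset difference, T2DM Ly6C-low minus Ly6C-high set against the same in CT, was 2.90 (adjusted p = 0.101, limma).

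Other surface receptors and signalling genes were higher. Lifr, the receptor of leukaemia inhibitory factor, was 7.25 and 7.37 in CT and 8.90 in T2DM. Plxnd1, a semaphorin receptor, was 5.06 and 4.90 in CT and 6.57 in T2DM. Il9r, the interleukin-9 receptor, was 4.65 and 4.56 in CT and 6.06 in T2DM, but T1DM stood at 5.57, so T2DM minus T1DM was 0.49. The regulators of the cytoskeleton Dock4 (log2FC 1.42) and Rnd3 (1.41) were called as well, and so was H2-K2, a relative of the MHC class I genes (4.18 and 4.67 in CT and 6.63 in T2DM). Gm10800 (1.57) shares 42% of its 31-base sequences with other genes. Both CT libraries lay below T2DM for each of these genes, as the call rule requires.

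Among the lower genes, Ccl5, a chemokine of T cells and NK cells, was 6.51 and 6.57 in CT and 3.89 in T2DM (log2FC -2.65, SE 0.14). Nkg7, a cytotoxic granule protein, was 6.43 and 6.16 in CT and 3.96 in T2DM (log2FC -2.34, SE 0.19). Itga2, the collagen-binding integrin chain that NK cells carry as CD49b, was 6.00 and 6.03 in CT and 3.73 in T2DM. Gzma, Il2rb, Klri2 and Ncr1, which are genes of NK cells, had log2FC of -1.89, -1.80, -1.72 and -1.69. Outside this group stood Atp2b4, a plasma membrane calcium pump, at 6.46 and 6.33 in CT and 3.85 in T2DM (log2FC -2.55), Hpgd, which degrades prostaglandins, at 6.53 and 6.56 in CT and 4.51 in T2DM (-2.04), Gbp7, an interferon-induced GTPase (-2.04), and Olfr907 (-1.69). T2DM lay below T1DM Ly6C-low MCs for each of the 12, by 0.90 for Olfr907 and by between 2.03 (Gbp7) and 3.08 (Hpgd) for the others.

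**Figure D2:**
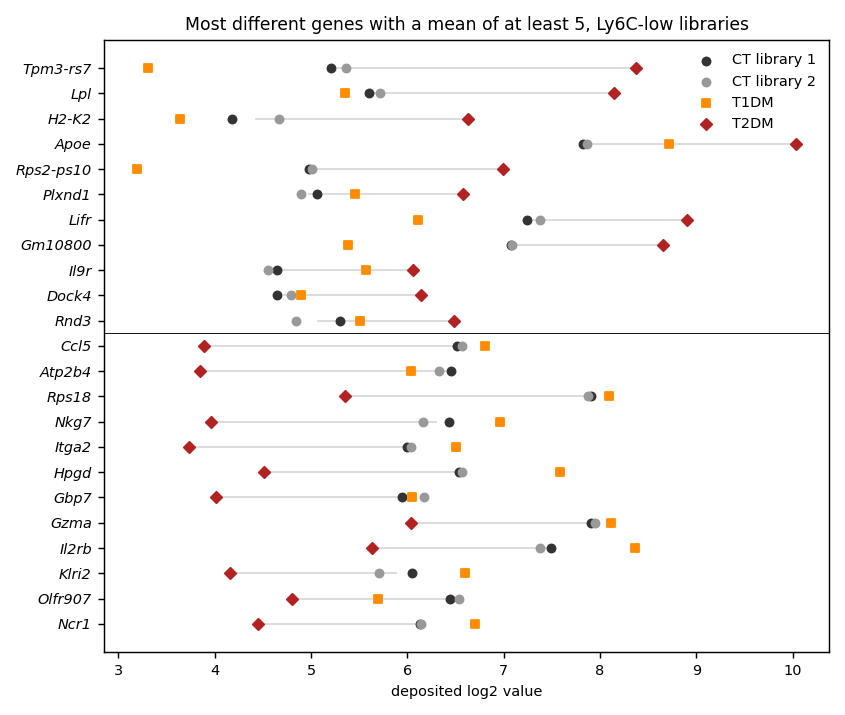
Deposited log2 values of 23 genes from the largest differences with a mean of at least 5, higher genes above the line and lower genes below it, for each Ly6C-low library. The T2DM library stands outside both CT libraries for each gene, as the call rule requires. For the genes below the line, T1DM lies nearer to CT than to T2DM.

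No marker of the patrolling subset itself was called. Of 20 markers of nonclassical MCs, 0 were called, with a median log2FC of 0.17 and a range from -0.90 (Fabp4) to 0.60 (Cd274, which encodes PD-L1). Nr4a1, the factor that Ly6C-low MCs need, was 7.80 and 8.02 in CT and 8.28 in T2DM. Cx3cr1, the fractalkine receptor, was 7.76 and 7.78 in CT and 8.14 in T2DM, and Csf1r, the receptor of macrophage colony-stimulating factor, was 9.70 and 9.75 in CT and 9.64 in T2DM. In T2DM Ly6C-high MCs the same list had a median of -0.83.

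Markers of other blood cells were present in each Ly6C-low library, and some moved with T2DM. Over all genes, 2.72% were called higher and 3.44% lower. The log2 of the summed level of 20 B cell markers was 12.87 in both CT libraries and 13.15 in T2DM, and 0 of 20 were called (median 0.35). Cd79a, a chain of the B cell receptor, was 8.56 and 8.59 in CT and 9.08 in T2DM. T cell markers summed to 7.77 and 7.76 in CT and 7.45 in T2DM, with 2 of 20 lower, Cd4 (-1.87) and Cd6 (-2.19). Plasmacytoid DC markers had 0 of 8 called, macrophage markers 1 higher (Mrc1) and 1 lower (Hpgd) of 15, and erythroid markers 0 of 9. All 9 erythroid markers were nevertheless below CT (median -0.54, against 0.48 in T1DM), 2 of them with an adjusted p of 0.0427 and 0.0477 in limma at log2FC of -0.54 and -0.62. Platelet markers were all lower in T2DM (15 of 15, median -0.55), but only Nrgn was called, and T1DM had a median of 0.77 against the same CT libraries. The sort gate as given names no antibody against B, NK or basophil markers, and in RNA from a pool, fewer cells of a type and less RNA per cell cannot be told apart.

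**Figure D3:**
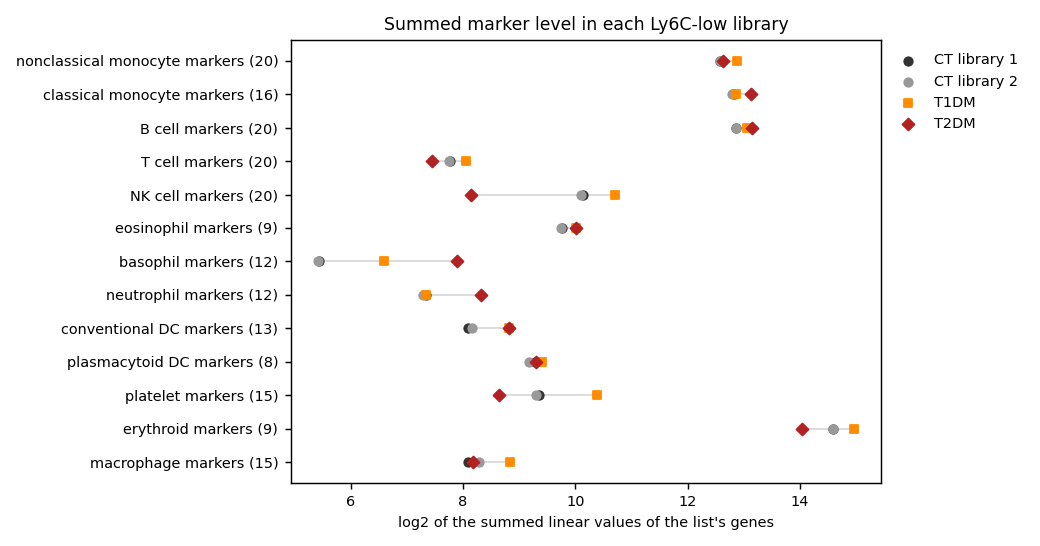
Log2 of the summed linear values of each marker list (number of measured genes in brackets) in each Ly6C-low library. The CT libraries nearly coincide for most lists, and T2DM stands below them for NK cell markers (8.15 against 10.13 and 10.11) and above them for basophil markers (7.89 against 5.44 and 5.41).

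NK cell genes were lower nearly throughout. NK cells are lymphocytes that kill infected and transformed cells with perforin and granzymes and that carry CD11b. Of 20 NK cell markers, 19 were called lower, 0 higher and 20 had a negative log2FC, with a median of -2.14, beside -0.0064 over all genes. Their summed level was 10.13 and 10.11 in CT, 8.15 in T2DM and 10.71 in T1DM. Prf1, perforin, was 5.89 and 5.79 in CT and 3.14 in T2DM. Gzmb, granzyme B, was 5.80 and 5.82 in CT and 3.28 in T2DM, and Ncr1, the activating receptor NKp46, was 6.13 and 6.14 in CT and 4.45 in T2DM. The lineage factors Tbx21 (log2FC -2.13) and Eomes (-1.76) were lower, as were the NK cell cytokines Ifng (-2.01) and Xcl1 (-3.58). The same list had a median of -1.56 in T2DM Ly6C-high MCs and -2.82 for T2DM minus T1DM within Ly6C-low MCs. None of the 20 genes passed limma at an adjusted p-value under 0.05, with Klra8 (adjusted p = 0.0541) and Ccl5 (0.0668) nearest to it. Under the low-value filter Klra8 passed at 0.01 (adjusted p = 0.0099, limma).

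The Klra genes, which encode the Ly49 receptors of NK cells, had the largest differences of that list. Klra8 was 4.35 and 4.36 in CT and -1.37 in T2DM, Klra9 was 3.71 and 3.85 in CT and -1.07 in T2DM, and Klra4 was 4.38 and 4.40 in CT and -0.11 in T2DM. In T1DM they were 5.59, 5.25 and 5.31. Inbred strains differ in their Klra gene copies and sequences, and 55% of the 31-base sequences of Klra8, 57.8% of Klra9 and 17.5% of Klra4 occur in other genes, so these values were set apart. Without the Klra genes, 16 of 17 markers were lower, with a median of -2.01.

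Basophil genes were higher. Basophils are rare granulocytes that bind IgE and release histamine and interleukin-4. Of 12 measured markers, 9 were called higher, beside 2.72% of all genes and 5.93% of those with a mean below 1, and 0 lower. The median was 2.71, 11 of the 12 lay above both CT libraries, and the summed level was 5.44 and 5.41 in CT, 7.89 in T2DM and 6.60 in T1DM. Fcer1a, the IgE-binding chain of its receptor, was -1.64 and -0.09 in CT and 3.18 in T2DM. Gata2, a transcription factor of basophils and mast cells, was 0.81 and 2.52 in CT and 5.41 in T2DM, Cd200r3 was 2.10 and 2.54 in CT and 5.21 in T2DM, and Hdc, which makes histamine, was 3.68 and 2.84 in CT and 5.44 in T2DM. The CT libraries were low and lay apart from each other for Gata2 and Fcer1a. That T2DM lay above both CT libraries for each gene named follows from the call rule. Csf1 (log2FC 2.46), Ms4a2 (2.81), Cpa3 (3.18), Kit (1.43) and Mcpt8 (3.22, with 1 CT library at the floor) were called too. The study had reported Csf1, Il6 and Il3ra as elevated in T2DM Ly6C-low MCs of this series, by limma with duplicates for each group. The call rule used here is another measure, on 1 T2DM library. As members of this list these genes are not independent evidence. Il6 (log2FC 2.60) and Il3ra (0.85) were not called here. In T2DM Ly6C-high MCs the list's median was -1.22, and for T2DM minus T1DM in Ly6C-low MCs it was 1.29, with 10 of 12 genes higher. Mcpt8, Prss34 and Il6 stood at the floor in T2DM Ly6C-high MCs, and Prss34 also in both CT Ly6C-high libraries.

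The sequences before the start sites of called basophil genes were searched for AGATAA and TGATAA, letters that GATA factors bind, on both strands, in the 250 bases upstream of the most upstream RefSeq start (GRCm38.p6). Of the 9 called genes, 4 held a match, as did 2 of the 3 not called and 11.3% of 11654 genes of the table with such a sequence. The 120 bases before the start are shown for these 4, 5′ to 3′ on the gene's strand, with the matches in capitals.
Fcer1a promoter (chr1:173227230-173227349, minus strand): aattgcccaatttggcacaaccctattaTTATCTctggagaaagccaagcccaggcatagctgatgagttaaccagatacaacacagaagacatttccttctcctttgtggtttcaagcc
Ms4a2 promoter (chr19:11623720-11623839, minus strand): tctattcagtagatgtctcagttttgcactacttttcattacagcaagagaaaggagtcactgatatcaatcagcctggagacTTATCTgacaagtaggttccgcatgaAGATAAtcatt
Cpa3 promoter (chr3:20242182-20242301, minus strand): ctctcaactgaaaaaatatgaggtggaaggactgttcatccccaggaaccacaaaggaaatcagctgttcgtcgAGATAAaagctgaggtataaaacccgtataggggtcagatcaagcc
Cd200r3 promoter (chr16:44943558-44943677, plus strand): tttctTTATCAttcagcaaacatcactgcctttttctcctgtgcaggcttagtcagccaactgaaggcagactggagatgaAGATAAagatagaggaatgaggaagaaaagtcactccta
A match is a description of the letters and no binding was measured.

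Genes of other granulocytes and DCs were partly higher, where 2.72% of all genes were called higher and 3.44% lower. Of 9 measured eosinophil markers, 3 were called higher, Ccr3, the eotaxin receptor (1.65 and 0.96 in CT and 3.53 in T2DM), Ear2, an eosinophil-associated ribonuclease (7.82 and 7.86, and 8.93), and Alox15 (3.26 and 3.37, and 4.84). Of the 31-base sequences of Ear2, 60.5% occur in other genes, and Ear2 was also 7.35 and 7.42 in CT Ly6C-high MCs. The list's Epx, Prg2 and Ear1 were not measured. Il5ra, the interleukin-5 receptor, stood at 5.93 and 5.80 in CT and 5.94 in T2DM. T1DM was close to T2DM for Alox15 (4.51). Of 13 conventional DC markers, Cd209a (log2FC 1.26), Clec10a (1.67) and Ccl17 (3.16) were higher and Fscn1 (-1.81) lower, with a list median of 0.67 in T2DM and 0.73 in T1DM against the same CT libraries.

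Part of the genes of neutrophils and classical MCs was higher. Beside 2.72% of all genes, 6 of 12 neutrophil markers (median 1.35) and 5 of 16 classical MC markers (median 0.65) were called higher, with S100a8 and S100a9 on both lists. S100a8 and S100a9, which form calprotectin, were 1.61 and 2.07, and 2.44 and 2.19, in CT and 3.88 and 4.68 in T2DM, while T1DM lay below CT for both. Chil3, a chitinase-like protein of neutrophils and MCs, was 4.35 and 4.09 in CT and 6.45 in T2DM. F13a1, the coagulation factor XIII A chain, was 5.42 and 5.38 in CT and 6.52 in T2DM. Cxcr2 (3.96 and 3.63 in CT and 5.78 in T2DM) and Ngp (-0.20 and 0.91, and 3.49) are neutrophil genes and Mmp8 (2.08 and 2.09, and 3.35) encodes a neutrophil collagenase. Of the 16 classical MC markers, 15 had a positive log2FC. Ccr2 (7.67 and 7.74 in CT and 8.57 in T2DM) and Ly6c2 (4.07 and 2.69, and 3.53) were not called. Both mark Ly6C-high MCs, with CT Ly6C-low minus CT Ly6C-high at -3.08 and -5.21. The called genes Chil3, F13a1 and Mmp8 mark that subset as well, at -6.16, -5.13 and -5.13. The other called genes of that list, S100a8 and S100a9, did not mark it in CT, at 0.70 and 1.39. T2DM minus CT of S100a8 was 5.76 in Ly6C-high MCs, which leaves a subset difference of -3.72.

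Interferon-stimulated genes (ISGs), which type I and II interferons switch on through STAT factors, were lower in part. Of 34 genes, 7 were called lower, 0 higher, and 27 had a negative log2FC, with a median of -0.66, beside 3.44% of all genes called lower. Oas3, an antiviral synthetase, was 5.37 and 5.31 in CT and 3.78 in T2DM, Oas1a was 3.84 and 4.01 in CT and 2.78 in T2DM, and Isg15, the ubiquitin-like modifier, was 2.12 and 2.26 in CT and 0.97 in T2DM. The interferon-inducible GTPases Gbp2 (log2FC -1.27), Gbp3 (-1.27) and Ifi47 (-1.51) and the chaperone Rtp4 (-1.16) completed the called genes. The list's median against CT was 0.07 in T1DM Ly6C-low MCs and -1.79 in T2DM Ly6C-high MCs. Some members were not lower, such as Mx1 at 4.62 and 4.69 in CT and 4.87 in T2DM. The NK cell list holds Ifng, which induces part of the ISGs, and its part in the ISG values was not tested.

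The promoters of the called ISGs were searched for GAAA, any 2 bases and GAAA again, the core of the interferon-stimulated response element, on both strands in the same 250 bases. Of 6 called genes with a sequence, 5 held a match, as did 9 of 19 ISGs not called and 2.96% of 11654 genes. The 120 bases before the start are shown for these 5, with the matches in capitals. Overlapping matches run together in capitals, with 3 in Isg15 and 2 each in Oas1a and Gbp3.
Isg15 promoter (chr4:156200819-156200938, minus strand): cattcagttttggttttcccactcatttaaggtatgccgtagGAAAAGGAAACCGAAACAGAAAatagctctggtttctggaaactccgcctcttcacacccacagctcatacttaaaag
Oas1a promoter (chr5:120907526-120907645, minus strand): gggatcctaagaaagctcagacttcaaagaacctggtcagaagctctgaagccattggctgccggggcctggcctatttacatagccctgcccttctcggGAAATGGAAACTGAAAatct
Oas3 promoter (chr5:120777660-120777779, minus strand): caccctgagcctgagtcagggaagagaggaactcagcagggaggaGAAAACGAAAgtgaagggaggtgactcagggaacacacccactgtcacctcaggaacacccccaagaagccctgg
Gbp2 promoter (chr3:142620543-142620662, plus strand): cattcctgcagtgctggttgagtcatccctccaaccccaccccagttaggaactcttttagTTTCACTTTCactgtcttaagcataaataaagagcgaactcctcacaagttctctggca
Gbp3 promoter (chr3:142559924-142560043, plus strand): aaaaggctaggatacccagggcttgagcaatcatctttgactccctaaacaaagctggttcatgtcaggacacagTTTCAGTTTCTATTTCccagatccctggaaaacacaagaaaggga
Gbp2 and Gbp3 carry the motif on the opposite strand, as TTTC runs.

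Few other genes of lipid metabolism were called, where 2.72% of all genes were called higher and 3.44% lower. Of 26 genes of lipid-associated macrophages and liver X receptor (LXR) targets, Apoe, Lpl and Cd63 (1.94 and 2.26 in CT and 3.76 in T2DM) were called higher and 0 lower, with a median of 0.08. The LXR targets Abca1 (log2FC -0.23), Abcg1 (0.00) and Mylip (-0.10) and Trem2 (0.46) were not called, and Cd36, the fatty acid and oxidized LDL receptor, was 7.87 and 7.62 in CT and 8.54 in T2DM. No gene was called among 20 of cholesterol synthesis (median -0.16), 20 of fatty acid oxidation (0.03), 19 of glycolysis (0.03), 18 of insulin and leptin signalling (0.13) or 29 of the respiratory chain (-0.13). The median of all genes was -0.0064.

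Eicosanoid and lipid mediator genes were called in both directions. Of 23, 5 were called higher and 3 lower, beside 2.72% and 3.44% of all genes, with a median of 0.53. Receptors of chemoattractants were higher, Fpr1 and Fpr2, which bind formylated peptides (3.59 and 4.03 in CT and 5.26 in T2DM, and 4.53 and 4.47 and 5.72), and Ltb4r1, the leukotriene B4 receptor (2.49 and 2.16, and 3.52). Pla2g7, which cleaves platelet-activating factor, was 6.55 and 6.64 in CT and 7.72 in T2DM. Lower were Hpgd, Alox12, the platelet lipoxygenase (6.81 and 6.89, and 5.77), and Ptgs1, cyclooxygenase-1 (4.47 and 4.45, and 3.31). Platelet markers were lower too (median -0.55, summed level 9.36 and 9.30 in CT and 8.64 in T2DM), and their part in Alox12 and Ptgs1 was not tested.

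**Figure D4:**
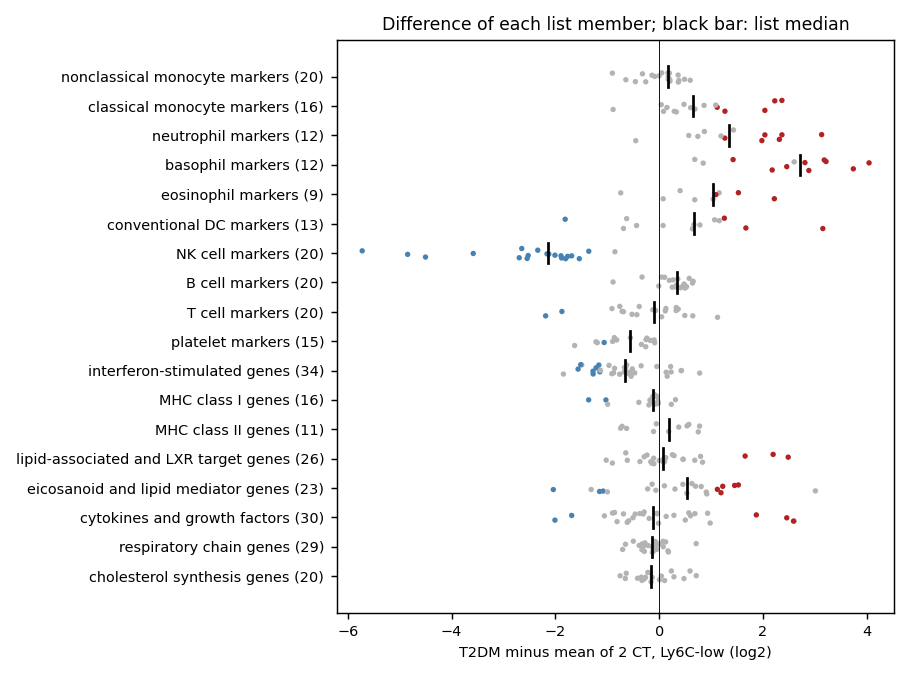
Log2FC (T2DM minus the CT mean) of each gene of 18 lists, with the number measured in brackets, red for called higher, blue for called lower, grey for not called, and a black bar at the list median. NK cell markers lie to the left (median -2.14) and basophil markers to the right (median 2.71), and metabolic lists lie around 0.

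Ligands and receptors of signalling were tallied by lists, where 2.72% of all genes were called higher and 3.44% lower. Some lists were near these shares, such as the 31 immune checkpoint genes with 1 called in each direction. Of 18 chemokines, 2 were higher (Ccl17 and Ccl3, the latter 3.21 and 3.45 in CT and 4.63 in T2DM) and 3 lower (Ccl5, Xcl1 and Cxcl13). Of 16 chemokine receptors, Ccr3, Ccr4, Ccr6 and Cxcr2 were higher and 0 lower. Of 30 cytokines and growth factors, Csf1, Il12a (0.44 and 1.54 in CT and 3.58 in T2DM) and Gdf15 (-0.28 and -0.27, and 1.60) were higher, and Ifng and Pdgfa (1.59 and 0.81, and -0.49) lower. Of 42 cytokine receptors, Lifr, Il9r, Il7r (2.50 and 1.83, and 3.84) and Acvr2b (0.47 and 0.77, and 1.99) were higher and Il2rb and Il12rb2 lower. Il12rb2, which pairs in the interleukin-12 receptor of NK and T cells, was 5.31 and 5.33 in CT and 4.00 in T2DM. Of 31 immune checkpoint genes, Cd200r1 was higher (1.56 and 2.26, and 3.33) and Tnfrsf9, the receptor 4-1BB, lower (2.80 and 2.48, and 0.28). The list of 24 cytokine genes that the study chose for this comparison on these samples had 9 higher and 5 lower, which is not independent evidence. All 24 also stand in other lists here, so their calls there are not independent evidence either.

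Receptors of uptake and adhesion were called in small numbers, beside 2.72% of all genes called higher. Of 23 scavenger and complement genes, Stab1 (log2FC 1.15), Mrc1, the mannose receptor (1.33), Colec12 (1.56) and C3ar1, the receptor of C3a (1.73), were higher and 0 lower. Of 27 Fc and C-type lectin receptors, Clec4a2 (1.65) and Clec4b1 (1.63) were higher, and of 25 integrin and adhesion genes Itga1 (1.96), shares not far from that of all genes. Itga2, which is not on that list, was lower. Among 29 AP-1, immediate-early and NF-kB genes, Ier3 was higher (0.89 and 0.46 in CT and 2.99 in T2DM) and Nr4a3, a relative of Nr4a1, lower (2.97 and 2.41, and -0.83). No gene was called among 21 Toll-like receptor and inflammasome genes, 21 NRF2 genes and 15 BCL2 family genes.

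Of the antigen presentation lists, MHC class I held called genes and MHC class II held none, and the difference between the lists was not tested. Over all genes, 2.72% were called higher and 3.44% lower. Of 11 MHC class II genes, 0 were called (median 0.18), and 6 had a positive and 5 a negative log2FC. H2-Aa was 10.41 and 10.34 in CT and 11.13 in T2DM, and Cd74, the invariant chain, 11.78 and 11.79 and 12.36. H2-Eb1 was 8.69 and 8.63 and 8.55, and H2-Oa and H2-Ob had log2FC of -0.71 and -0.74. Of 16 MHC class I genes, H2-K1 (10.03 and 10.05 in CT and 9.01 in T2DM, SE 0.04) and H2-Q7 (8.25 and 8.14, and 6.83) were called lower, and H2-D1 stood at 10.30 and 10.34 and 10.12. T1DM lay above CT for H2-K1 (10.48). Outside the list, H2-Q2 (2.14 and 1.23 in CT and 4.96 in T2DM) and H2-K2 were called higher and H2-M2 (1.42 and 0.55, and -0.62) lower, so class I genes were called in both directions. Classical class I genes differ in sequence between mouse strains, 22.8% of the 31-base sequences of H2-K1 occur in other genes, and read assignment can be divided between them.

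The subset difference, T2DM Ly6C-low minus Ly6C-high against the same in CT, is not touched by a shift that a sequencer gives to both subsets. Of all genes, 0 (0%) passed at an adjusted p-value under 0.01 with an absolute value above 1 (2291 at an unadjusted p-value under 0.05), and 1 (0.00607%) at 0.05. That gene was Cd74 (subset difference 2.30, SE 0.03, adjusted p = 0.0166, limma). Cd74 was 10.24 and 10.26 in CT and 8.52 in T2DM Ly6C-high MCs, and T2DM minus CT was -1.73 in that subset beside 0.57 among Ly6C-low MCs. After the low-value filter, H2-Aa, H2-Ab1 and Fn1 passed at 0.01 with Cd74. B cell markers had a median subset difference of 0.95, with 16 of 20 above 0 and 4 below. Their part in the values of Cd74, H2-Aa and H2-Ab1 was not tested.

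Some of the largest differences were in gene copies. Of 217 genes whose symbol marks a pseudogene or related sequence, 19 (8.76%) were called higher and 20 (9.22%) lower, against 2.64% and 3.36% of other genes. Many copies had low values, and of all genes with a mean below 1, 5.93% were called higher and 8.93% lower. Copies and other genes were not compared at equal level. Rpl3-ps1 was 1.97 in both CT libraries, which is the floor, and 7.09 in T2DM, while its parent Rpl3, a ribosomal protein gene, was 8.95 and 8.94 in CT and 7.60 in T2DM. Rpsa-ps10 was 1.97, also the floor, in both CT libraries and 7.20 in T2DM beside Rpsa at 9.33 and 9.27 and 7.88, and Tpm3-rs7 was 5.21 and 5.36 and 8.37 beside Tpm3, a tropomyosin, at 8.92 and 8.88 and 8.39. Of the 31-base sequences of these copies, 97.4%, 89.4% and 78.6% occur in other genes too. When copy and parent were summed on the linear scale, the log2FC was -0.59 for Rpl3, -0.73 for Rpsa and 0.37 for Tpm3. Rps18 (7.90 and 7.87 in CT and 5.35 in T2DM) was at -2.15 when summed with Rps18-ps3. Of the 31-base sequences of Rps18 and Rps18-ps3, 22.4% and 86.4% occur in other genes. Both share most with Gm11361, which was not in the sum. Copies were paired with parents by symbol, so the sums leave out other copies. Rps2-ps10 was 4.98 and 5.01 in CT and 6.99 in T2DM, and 0.22 when summed with Rps2. In T2DM Ly6C-high MCs Rpl3-ps1 stood at 7.31, with T2DM minus CT of Rpl3 at -0.84, and in T1DM Ly6C-low MCs Rpl3-ps1 stood at 0.80. How reads were divided between copy and parent was not tested.

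**Figure D5:**
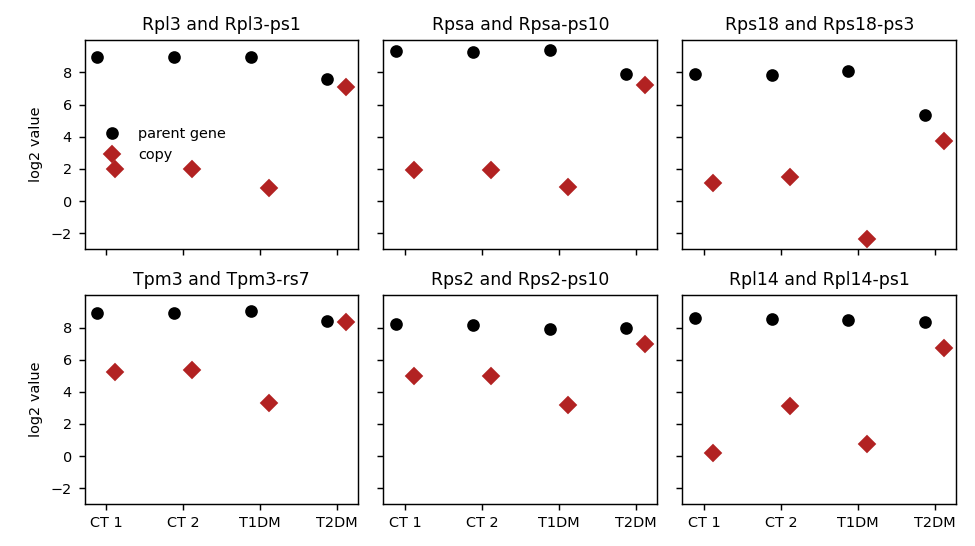
Log2 values of 6 parent genes (black) and a copy of each (red) in the 4 Ly6C-low libraries. In the T2DM library each copy lies above its CT values, and the parents Rpl3, Rpsa and Rps18 lie below theirs.

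Other differences were in genes that vary between mouse strains or lie on the Y chromosome. H2-Ea-ps, the MHC class II alpha gene that C57BL/6 mice do not transcribe, was 1.54 and 2.93 in the CT libraries, 0.75 in the T1DM library and 8.70 in the T2DM library. The CT value of 1.54 is the floor, and T2DM Ly6C-high MCs stood at 4.41. Ddx3y, a Y-linked gene, was 3.37 and 3.64 in CT, 5.40 in T2DM and 6.30 in T1DM, and Kdm5d was 5.66 and 5.81, 6.64 and 7.41. All mice were stated to be male, and the diabetic libraries lay above the CT libraries for both genes. Skint3 was 4.15 and 4.02 in CT and -0.97 in T2DM, with T1DM at 6.10. For H2-Ea-ps and Skint3, strain background and diabetes cannot be told apart, since no strain is given for the T2DM group. For the Y-linked genes, sequencer and diabetes cannot be told apart, and T1DM, of the CT strain, lay further above CT than T2DM.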

How the data were processed

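RNA of flow-sorted mouse blood MCs was sequenced in 8 libraries. The authors deposited log2 values for 16486 genes. Per the submitters' processing notes they used Kallisto 0.45, tximport 1.12.3 and R 3.6.1 with mm10. How the values were normalized is not given in the sources used here, no counts were used, and the depth behind each value is unknown. Groups came from the labels. The difference was T2DM minus the CT mean, and a gene was called as stated in the report. limma 3.58.1 (R 4.3.3) fitted 6 group means to all 8 libraries with a trend, leaving 2 residual degrees of freedom, with Benjamini-Hochberg adjustment over all genes, and was tested on simulated data. Genes named are Lepr, the 12 largest called differences in each direction with a mean of at least 5, genes passing limma, and list members that were called or define a list. A few of these are not reported here. The comparison, members and lists were chosen with earlier results of these data known. Shared sequence is the percentage of a gene's 31-base words found in transcripts of other genes. Alternatives were a low-value filter, 1 added on the linear scale, quantile normalization, no trend, a replicate block and leaving out each CT library. Figures used Python 3.11.15 and matplotlib 3.10.9.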

Additional observations from a re-analysis of the deposited data

Results flagged for a closer look

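Lists whose medians against CT had opposite signs in different diabetic libraries were singled out. Each diabetic group has 1 library, so these differences were not tested. The mean of the diabetic libraries lay close to that of the CT libraries for most genes. The signs of the diabetic libraries against CT, between models and between subsets, are therefore not independent of each other. NK cell markers had a median of -2.14 in T2DM and 0.63 in T1DM Ly6C-low MCs, which were set against the same CT libraries. Neutrophil markers stood at 1.35 in T2DM and -0.54 in T1DM Ly6C-low MCs, and platelet markers at -0.55 and 0.77. Between the T2DM subsets, basophil markers stood at 2.71 in Ly6C-low and -1.22 in Ly6C-high MCs, the latter at the floor for Mcpt8, Prss34 and Il6. Eosinophil markers stood at 1.04 and -0.56, where the former was 0.59 without CT Ly6C-low library 2 and 0.62 with 1 added on the linear scale, and conventional DC markers at 0.67 and -1.02. Cd74, the MHC class II invariant chain, had a subset difference of 2.30 (limma, adjusted p = 0.0166).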

How the results depend on the processing

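Calls depended on how low values were treated. The 448 genes called higher became 207 under the low-value filter, 261 with 1 added and 286 with T1DM as a further reference (chosen after seeing the data), and without 1 CT library they were 1043 to 1057. The 567 called lower became 224, 202 and 406, and 1073 to 1132 without 1 CT library. In limma at 0.01, the 0 genes became 7 higher and 9 lower under the filter and 1 higher after quantile normalization, and at 0.05 they were 4 higher and 7 lower. For the subset difference they became 3 higher and 1 lower, 3 higher, and 1 higher. The CT replicate numbers do not pair the samples (correlation of deviations 0.0089 over genes), and with a replicate block 0 genes passed, with 1294 and 1742 at an unadjusted p-value under 0.05. Without either CT library the count was 0. The NK cell median of -2.14 was -1.85 with 1 added, -2.33 after quantile normalization, -2.01 without Klra genes (chosen after seeing the data) and -2.18 to -2.10 without 1 CT library. The basophil median of 2.71 was 2.16, 2.94 and 2.43 to 2.77. The neutrophil median of 1.35 was 1.07, 1.47 and 1.60 to 1.69. The nonclassical median was 0.147 after quantile normalization and 0.133 to 0.187 without 1 CT library, and the ISG median -0.715 and -0.696 to -0.645. These 5 medians kept their sign. The 24 called genes among the largest differences kept theirs too, which the call rule fixes when 1 CT library is left out. Lepr, which was not called, was -2.01 or 1.49 when 1 or the other CT library was left out.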
